A study of Mus musculus with 19 samples.

Results

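Glycolysis genes were described as a set of 10, listed by gene symbol with earlier results of these data known: the glucose transporter gene Slc2a1 and the genes for the glycolytic enzymes Hk3, Gpi1, Pfkl, Aldoa, Tpi1, Gapdh, Pgk1 and Pkm and for the lactate dehydrogenase subunit Ldha. All 10 had a row among the 50854 genes of the count table, and all 10 were among the 18652 genes tested. The symbol Aldoa was held by 2 gene IDs in the count table, and only the ID with the longer exonic length was used. The lowest read count of any of them in any of the 19 libraries was 472, for Slc2a1. Bulk RNA-seq had been run on cells sorted as monocytes from the bone marrow of female REP mice aged 8 to 12 weeks. REP mice carry fluorescent reporters for several inflammatory chemokine receptors, CCR1 and CCR2 among them, so that living cells can be sorted by the receptors they express.

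The libraries fell into 5 groups. Resting CCR2 and resting CCR1/2 cells (4 libraries each) came from REP mice labelled resting and carried the CCR2 reporter alone or the CCR1 and CCR2 reporters together. Inflamed CCR2 cells (4 libraries) and inflamed CCR1/2 cells (3 libraries) were the same sorted populations from REP mice labelled inflamed. Inflammation was induced by a cocktail of IL-3, IL-6, GM-CSF and IFN-α infused from an implanted osmotic pump. The fifth group, inflamed CCR1 (4 libraries), is labelled by the CCR1 reporter alone and as monocytes, and its sort is not described in the sources used here. The sort gate described for CCR1/2 and CCR2 cells took CD11b+ Ly6C-high cells without Ly6G or SiglecF. The labels do not say whether replicates of a group were separate animals, so the p-values below measure the spread between these samples, which may be technical. In bulk samples, fewer cells of a type and less RNA per cell cannot be told apart.

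Glycolysis splits glucose into pyruvate in the cytosol and yields ATP and NADH without oxygen. Glucose enters through transporters of the GLUT family, is trapped by hexokinase, is committed by phosphofructokinase, and is cut by aldolase into triose phosphates that the lower enzymes turn into pyruvate. Lactate dehydrogenase regenerates NAD+ by reducing pyruvate to lactate. Myeloid cells activated by microbial or cytokine signals are known for a high glycolytic rate, and neutrophils for depending on glycolysis for most of their ATP. Several of these genes are textbook targets of the transcription factor HIF-1, which binds DNA at the core letters ACGTG.

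Libraries held between 22268658 and 30502009 counted reads, and between 0.320% and 0.987% of these were on mitochondrial genes. The labelled cell type was checked with marker lists, whose levels are given as CPM, reads scaled to 1000000 per library and then by edgeR's TMM factors. In the resting and inflamed CCR2 and CCR1/2 groups all 10 monocyte markers were above 10 CPM, and their summed level lay between 30994 and 57351 CPM. In the inflamed CCR1 group the same 10 markers summed to between 7813 and 12456 CPM, with Ccr2 itself at 5.82 ± 2.56 CPM (SD, n = 4) against 1251 ± 125 CPM in inflamed CCR2 cells. Its 11 mature neutrophil markers summed to between 104419 and 152991 CPM, against at most 3189 CPM in any other library. The inflamed CCR1 libraries therefore go against the label "monocytes", and they are called here by their group label only.

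Across the 5 groups the highest mean level was in inflamed CCR1/2 cells for Slc2a1, Pfkl, Aldoa, Tpi1, Pgk1, Pkm and Ldha, in inflamed CCR2 cells for Gapdh, and in the inflamed CCR1 group for Hk3 and Gpi1. The ranges of the resting groups overlapped for every gene but Pgk1, and those of the inflamed CCR1/2 and CCR2 groups for every gene but Pfkl and Pkm. The 10 genes together took 0.461% ± 0.0248 (SD, n = 4) of all reads in resting CCR2 cells and 0.506% ± 0.0227 (n = 4) in resting CCR1/2 cells. They took 0.991% ± 0.0883 (n = 4) in inflamed CCR2 cells, 1.06% ± 0.0766 (n = 3) in inflamed CCR1/2 cells and 0.945% ± 0.0383 (n = 4) in the inflamed CCR1 group. No inflamed library overlapped a resting one, since the resting libraries reached 0.530% and the inflamed ones began at 0.895%. Pkm alone supplied between 37.5% and 51.5% of the reads on the set, so the share follows Pkm more than any other gene.

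**Figure D1:**
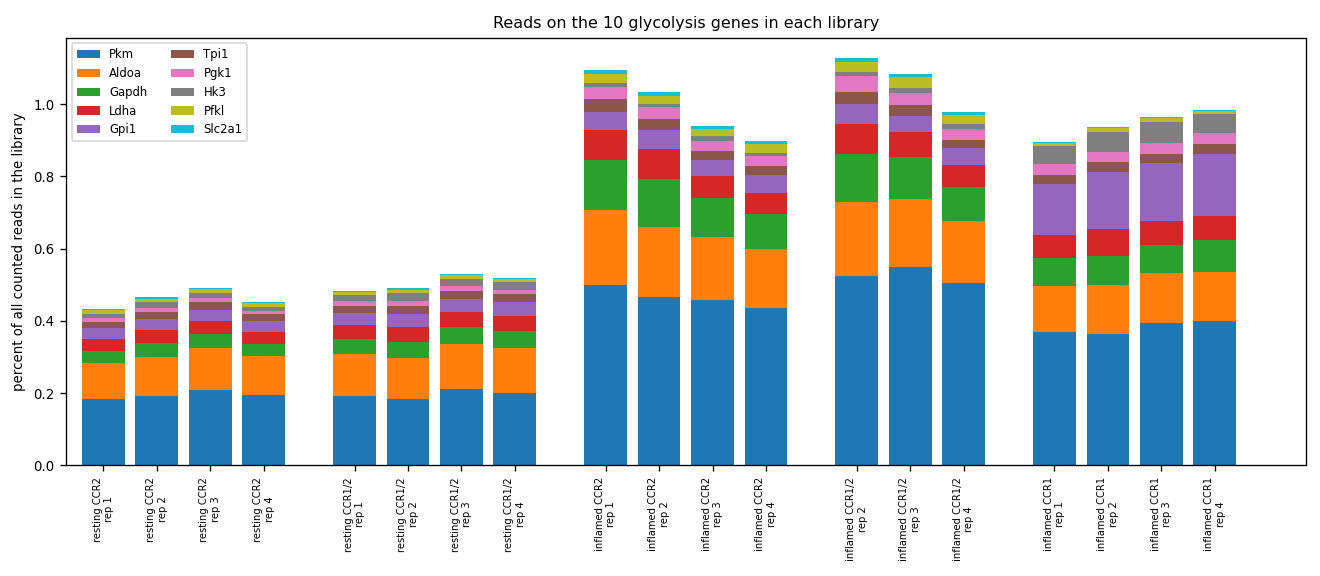
Percent of all counted reads in each of the 19 libraries (bars, one per library, grouped by the 5 groups) that fell on the 10 glycolysis genes, stacked by gene. The 8 resting libraries reach at most 0.530% and the 11 inflamed ones at least 0.895%, and the segments for Gpi1 and Hk3 are widest in the inflamed CCR1 libraries.

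Per kilobase of exon, Pkm and Aldoa were the 2 highest genes of the set in every group and Slc2a1 was the lowest in every group. In resting CCR2 cells the mean level per kilobase was 374 CPM for Pkm, 354 CPM for Aldoa, 98.7 CPM for Ldha, 13.7 CPM for Pfkl and 10.4 CPM for Slc2a1. In inflamed CCR2 cells Pkm stood at 983 CPM per kilobase and Aldoa at 667. Gpi1 moved from rank 6 in resting CCR2 cells to rank 3 in the inflamed CCR1 group, at 261 CPM per kilobase. Hk3 moved from rank 8 to rank 6 between the same groups.

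The bases before the start site of 4 genes of the set are shown, with every match to ACGTG on either strand in capitals. Pgk1, Ldha and Slc2a1 are among the 9 genes that rose in both populations, and Hk3 is the gene that did not. All 4 shown hold a match, so they do not stand for the whole set. The sequences are from RefSeq on GRCm38.p6, run 5′ to 3′ along the strand of the gene and end at the base before the start site.

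Pgk1, chrX:106186850-106187099, plus strand: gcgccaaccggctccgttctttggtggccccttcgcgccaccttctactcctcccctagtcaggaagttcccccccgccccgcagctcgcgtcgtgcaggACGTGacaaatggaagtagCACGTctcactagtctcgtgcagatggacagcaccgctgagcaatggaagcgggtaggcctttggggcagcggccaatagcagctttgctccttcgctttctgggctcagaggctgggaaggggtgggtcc
Ldha, chr7:46845554-46845803, plus strand: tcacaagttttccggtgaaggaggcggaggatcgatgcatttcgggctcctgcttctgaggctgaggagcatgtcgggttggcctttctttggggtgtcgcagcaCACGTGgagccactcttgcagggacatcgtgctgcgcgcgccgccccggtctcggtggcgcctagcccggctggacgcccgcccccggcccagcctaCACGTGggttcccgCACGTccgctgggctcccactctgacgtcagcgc
Slc2a1, chr4:119108495-119108744, plus strand: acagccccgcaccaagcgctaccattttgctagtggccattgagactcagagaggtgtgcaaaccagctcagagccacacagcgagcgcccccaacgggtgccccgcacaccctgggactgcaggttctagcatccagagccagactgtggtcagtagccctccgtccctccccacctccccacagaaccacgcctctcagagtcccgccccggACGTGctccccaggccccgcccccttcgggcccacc
Hk3, chr13:55021386-55021635, minus strand: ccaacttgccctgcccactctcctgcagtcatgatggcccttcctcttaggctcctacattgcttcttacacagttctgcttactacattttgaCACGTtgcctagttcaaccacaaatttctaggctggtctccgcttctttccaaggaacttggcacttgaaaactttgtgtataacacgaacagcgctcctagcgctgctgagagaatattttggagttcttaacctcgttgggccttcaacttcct

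In Pgk1 the matches began 150 and 131 bases before the start, in Slc2a1 36 bases and in Hk3 156 bases before it. Ldha held 5 overlapping or single matches, at 145, 144, 48, 47 and 34 bases before the start, because the palindrome CACGTG counts once on each strand. Across the window from 250 bases before to 50 bases after each start, 7 of the 10 genes had a match in at least 1 RefSeq promoter entry, and 8 of their 14 entries did. Gpi1, Pfkl and Tpi1, which also rose in both populations, had none. Ldha had 2 entries, and the entry not shown held no match. Of the Aldoa entries, 2 overlap and hold the same match, which is counted in both. Of all 32851 mouse promoters of that length, 19.6% held ACGTG on either strand and 7.15% held CACGTG. The 19.6% is a share of entries, so it is like the 8 of 14 entries and unlike the 7 of 10 genes. A match is a description of the letters and was not set against binding data.

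**Figure D2:**
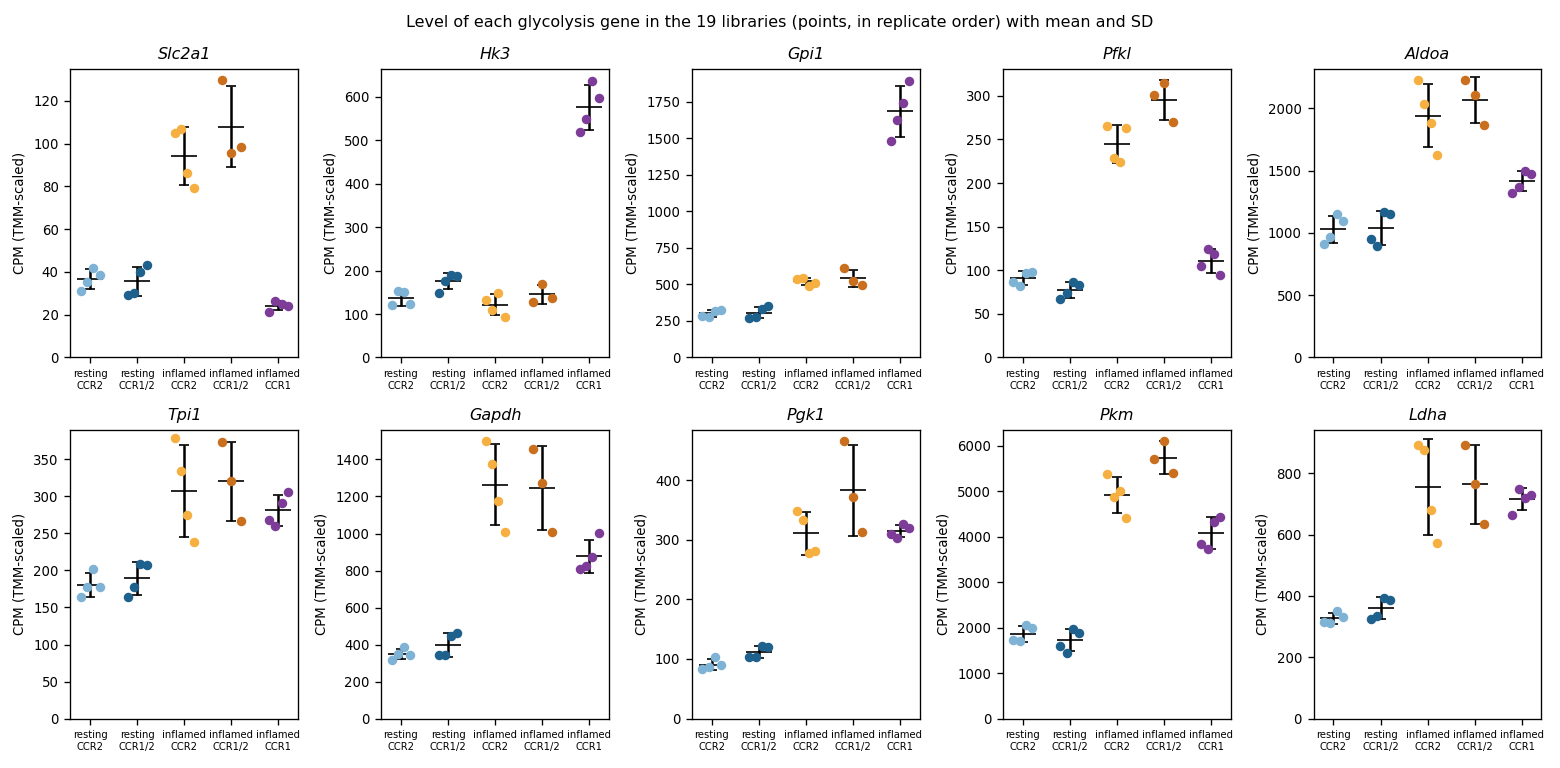
Level of each of the 10 genes (one panel per gene, in pathway order) in CPM on a linear axis from 0, for the 5 groups; points are libraries in replicate order, the horizontal bar is the group mean and the whisker its SD. For 9 genes the inflamed CCR2 and CCR1/2 libraries sit above the resting ones, Hk3 and Gpi1 peak in the inflamed CCR1 group, and Slc2a1 is lowest there.

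Inflamed and resting CCR2 cells were compared to ask how monocytes carrying CCR2 alone differ after inflammation. The labels do not say whether resting mice carried a vehicle pump, so the cytokines and the implanted pump cannot be told apart. Whether resting and inflamed libraries were sorted and prepared together is not given in the sources used here either. A batch that coincided with treatment could therefore not be told apart from inflammation in either population. By the quasi-likelihood test of edgeR, with p adjusted over all genes tested by the Benjamini-Hochberg method, 9 of the 10 glycolysis genes rose and none fell, with a median log2 fold change of 1.21 over the set. Over all 18652 genes 21.9% were called higher and 25.9% lower, with a median of -0.10. With a log2 fold change of 1 or more required as well, 6 of the 10 passed, against 9.37% of all genes. Groups did not overlap for 9 of the 10, against 45.7% of all genes.

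Slc2a1, which encodes the glucose transporter GLUT1, is at chr4:119108711-119137983 on the plus strand of GRCm38. It was at 30.9, 35.2, 41.7 and 38.5 CPM in the resting CCR2 libraries 1 to 4 and at 105, 107, 86.3 and 79.1 CPM in the inflamed ones. Each inflamed library was above each resting library, and the log2 fold change was 1.29 (SE 0.12, adjusted p = 4.2e-07). Pfkl encodes the liver-type subunit of phosphofructokinase, which catalyses the committing step. Its level was 86.7, 82.4, 97.0 and 98.4 CPM at rest and 265, 229, 224 and 263 CPM after inflammation, a log2 fold change of 1.36 (SE 0.10, adjusted p = 4.7e-08) with no overlap. Pfkl lies at chr10:77986947-78010083 on the minus strand.

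Gapdh (chr6:125161715-125166467, minus strand), the enzyme of the step that yields NADH, rose most, by 1.78 on the log2 scale (SE 0.12, adjusted p = 1.1e-08). It stood at 315, 349, 388 and 345 CPM in resting CCR2 libraries and at 1500, 1375, 1177 and 1005 CPM in inflamed ones. Pgk1, the enzyme of the first ATP-yielding step, is on chromosome X (chrX:106187100-106203699, plus strand). It went from 82.5, 86.3, 103 and 90.1 CPM to 349, 333, 278 and 282 CPM, a log2 fold change of 1.71 (SE 0.11, adjusted p = 5.3e-09). Both genes were higher in all 4 inflamed libraries than in any resting one.

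Pkm (chr9:59656368-59679375, plus strand), the pyruvate kinase of the last step, was the most abundant of the set by reads. Its resting CCR2 levels of 1733, 1708, 2050 and 1986 CPM compared with inflamed levels of 5371, 4871, 5006 and 4418 CPM, a log2 fold change of 1.32 (SE 0.10, adjusted p = 2.4e-08). Counts per gene do not separate its M1 and M2 isoforms. Ldha (chr7:46841475-46855627, plus strand), the subunit of the lactate-forming dehydrogenase, was at 316, 311, 350 and 331 CPM at rest and at 891, 877, 680 and 571 CPM after inflammation. Its log2 fold change was 1.13 (SE 0.13, adjusted p = 2.4e-06), and the spread between inflamed libraries was wider than between resting ones.

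Smaller rises were measured for Aldoa, Gpi1 and Tpi1, at log2 fold changes of 0.84, 0.71 and 0.69 with adjusted p at most 0.00036. Aldoa (chr7:126795234-126800751, minus strand), the aldolase that cuts fructose bisphosphate, went from 912, 966, 1148 and 1094 CPM to 2227, 2033, 1879 and 1630 CPM. Gpi1 (chr7:34201330-34230336, minus strand), the isomerase of glucose phosphate, went from 284, 280, 318 and 328 CPM to 538, 541, 492 and 510 CPM. Tpi1 (chr6:124810586-124814296, minus strand), which interconverts the triose phosphates, went from 164, 178, 202 and 177 CPM to 379, 334, 275 and 239 CPM. None of the 3 overlapped between the groups, with the nearest libraries of Tpi1 at 202 and 239 CPM.

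Hk3 (chr13:55005985-55021385, minus strand) encodes a hexokinase that myeloid cells are known for and was the exception in CCR2 cells. It was at 120, 152, 150 and 123 CPM at rest and at 133, 109, 149 and 94.1 CPM after inflammation, with overlapping groups. Its log2 fold change of -0.24 had a 95% interval from -0.55 to 0.06 (adjusted p = 0.19).

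In CCR1/2 cells the same comparison gave 9 genes higher and 1 lower, with a median log2 fold change of 1.22 over the set. Of all genes, 20.6% were called higher and 25.4% lower, with a median of -0.25. With the fold cutoff of 1 on the log2 scale 5 of the 10 passed, against 9.16% of all genes, and groups did not overlap for 9, against 50.1%. Pfkl rose most here, from 66.5, 74.4, 86.7 and 83.1 CPM in the resting libraries to 301, 315 and 270 CPM in inflamed libraries 2 to 4. This was a log2 fold change of 1.80 (SE 0.10, adjusted p = 4.6e-08). Pgk1 rose by 1.64 on the log2 scale, Pkm by 1.61, Gapdh by 1.52 and Slc2a1 by 1.48, each with adjusted p at most 4.3e-06. Slc2a1, for example, went from 29.3, 30.0, 39.7 and 43.1 CPM to 130, 95.6 and 98.2 CPM. Pkm went from 1594, 1448, 1977 and 1893 CPM to 5710, 6116 and 5405 CPM, and Gapdh from 345, 343, 444 and 462 CPM to 1455, 1272 and 1008 CPM. In each of these genes the lowest inflamed library stood above the highest resting one.

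Ldha, Aldoa, Gpi1 and Tpi1 rose by 0.96, 0.86, 0.69 and 0.63 on the log2 scale in CCR1/2 cells, with adjusted p at most 0.00061. Hk3 fell from 149, 177, 189 and 188 CPM to 128, 170 and 137 CPM, a log2 fold change of -0.40 (SE 0.12, adjusted p = 0.016) with overlapping groups. That call was lost with RLE size factors (adjusted p = 0.070), in DESeq2 (0.078), in a fit of all 19 libraries (0.12), without resting CCR1/2 library 2 (0.072) and, by a narrow margin, without inflamed CCR1/2 library 4.

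**Figure D3:**
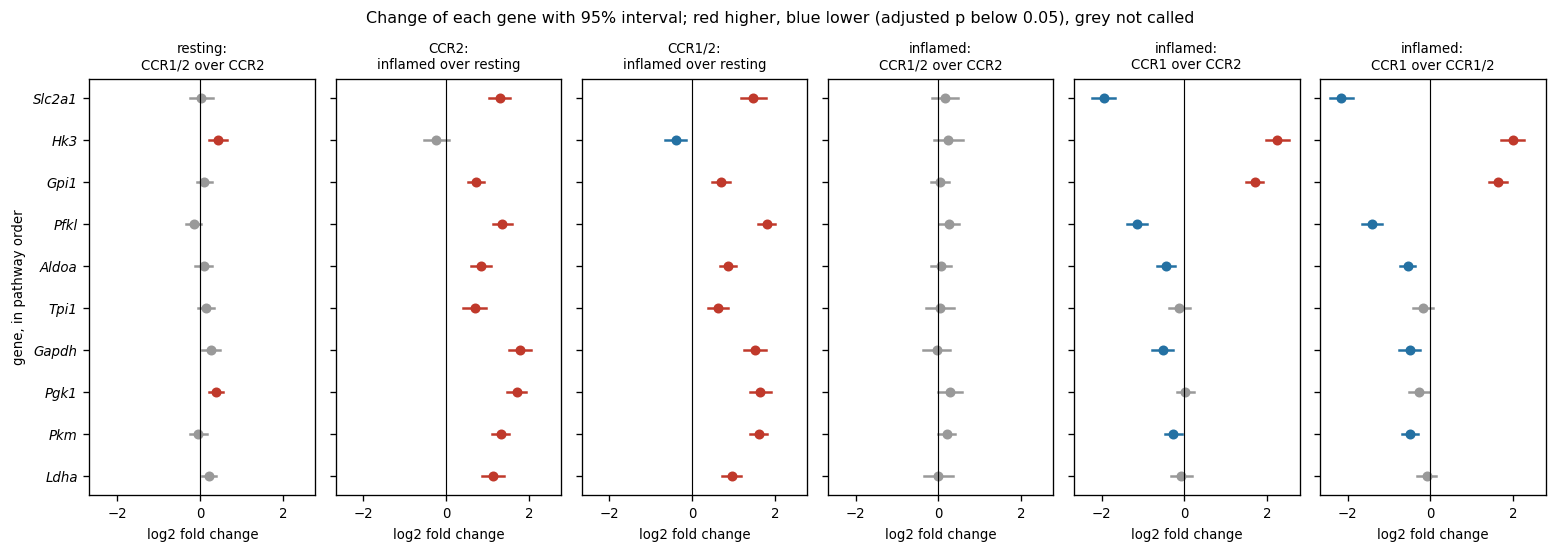
Log2 fold change of each gene (points, in pathway order from top to bottom) with its 95% interval (lines) in 6 comparisons of 2 groups; red marks higher, blue lower at adjusted p below 0.05, grey not called. The inflamed against resting panels show 9 red genes each with Hk3 at -0.24 and -0.40, and the panels of the inflamed CCR1 group show Hk3 and Gpi1 to the right and Slc2a1 and Pfkl to the left.

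Marker lists were counted with inflammation too. Over all genes, 21.9% were called higher and 25.9% lower in CCR2 cells, and 20.6% and 25.4% in CCR1/2 cells. Mature neutrophil markers summed to between 1244 and 1596 CPM in inflamed CCR2 libraries against 598 to 909 CPM at rest, with 7 of 11 higher. In CCR1/2 cells the same markers summed to between 2531 and 3189 CPM against 2451 to 3128 CPM at rest, with 6 higher and 2 lower. Early granule markers were lower for 2 of 5 in CCR2 cells and for 4 of 5 in CCR1/2 cells, where they summed to between 729 and 1178 CPM against 3028 to 6487 CPM. Dendritic cell markers were lower for 5 of 8 and higher for 2 in CCR2 cells, and lower for 4 and higher for 2 in CCR1/2 cells. Erythroid markers summed to between 7.36 and 17.9 CPM in inflamed CCR2 cells against 100 to 303 CPM at rest, and to between 10.4 and 26.8 CPM against 66.8 to 191 CPM in CCR1/2 cells. Of the 10 monocyte markers 3 were higher and 2 lower in CCR2 cells, near the shares of all genes. In CCR1/2 cells 6 were higher and 2 lower. B cell markers summed to between 907 and 1690 CPM in inflamed CCR2 libraries against 758 to 1012 CPM at rest. Of these 8 markers 1 was higher and 3 lower. In CCR1/2 cells they summed to between 955 and 1658 CPM against 595 to 719 CPM, with 1 higher and 2 lower. Of 11 cell cycle genes tested, 4 were higher and 2 lower in CCR2 cells, and 1 higher and 4 lower in CCR1/2 cells. The part of these lists in the rises of the glycolysis genes was not tested.

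The change with inflammation was then compared between the populations through the interaction term of population and inflammation. None of the 10 was called at adjusted p below 0.05 in edgeR, 1 had an unadjusted p below 0.05, and DESeq2 likewise called none, with 1 below 0.05 unadjusted. Over all genes 0.241% were called higher and 0.155% lower. That 1 gene was Pfkl, whose rise was larger in CCR1/2 cells by 0.40 on the log2 scale (95% interval 0.10 to 0.70, unadjusted p = 0.012, adjusted p = 0.23). In DESeq2 the same term was 0.46 with adjusted p = 0.069. For Gapdh the term was -0.31, with a 95% interval from -0.70 to 0.08.

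At rest, CCR1/2 cells were compared with CCR2 cells to ask how far the sorted populations differ before treatment. Of the 10 genes 2 rose and none fell, and 8.44% of all genes were called higher and 8.44% lower. Pgk1 was at 104, 103, 121 and 120 CPM in CCR1/2 libraries against 82.5, 86.3, 103 and 90.1 CPM in CCR2 libraries, a log2 fold change of 0.39 (SE 0.08, adjusted p = 0.0056). It was the only gene of the set whose groups did not overlap, against 20.2% of all genes. The margin was narrow, with the nearest libraries at 103.0 CPM (CCR1/2 library 2) and 102.8 CPM (CCR2 library 3). Hk3 was higher by 0.44 (SE 0.10, adjusted p = 0.0099) with groups that overlapped. Neither passed the fold cutoff, which 2.34% of all genes passed upwards.

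Resting libraries with the same replicate number deviated from their group means together, and with the replicate number as a block 4 genes were called higher. The block added Gapdh (log2 fold change 0.26, adjusted p = 0.0050) and Ldha (0.21, adjusted p = 0.0050), whose adjusted p were 0.090 and 0.069 without it. DESeq2, library totals without scaling and the filterByExpr filter also gave these 4. A fit of all 19 libraries gave none, with adjusted p = 0.074 for Hk3 and 0.076 for Pgk1. Pkm, Slc2a1, Aldoa, Gpi1, Tpi1 and Pfkl lay between -0.15 and 0.14 on the log2 scale, and the widest of their 95% intervals, for Slc2a1, ran from -0.24 to 0.30.

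Markers of other cells moved in this comparison too. Of 10 monocyte markers 6 were called lower in CCR1/2 cells. Mature neutrophil markers summed to between 2451 and 3128 CPM in resting CCR1/2 libraries and between 598 and 909 CPM in resting CCR2 libraries, and 6 of 11 were called higher. The 5 early granule markers in the table summed to between 3028 and 6487 CPM against 403 to 1575 CPM, and 4 of 5 were called higher. All 11 cell cycle genes tested were called higher. Dendritic cell markers summed to between 37.9 and 121 CPM in resting CCR1/2 libraries against 236 to 624 CPM in resting CCR2 libraries, and 6 of 8 were called lower, all past the fold cutoff. Their part in the differences of Hk3 and Pgk1 was not tested.

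After inflammation, CCR1/2 and CCR2 cells were set side by side. None of the 10 genes was called in edgeR, where 0.123% of all genes were higher and 0.0643% lower, and none in DESeq2. At an unadjusted p below 0.05 there were 2 in edgeR, Pfkl and Pkm, and 1 in DESeq2. Pfkl was at 301, 315 and 270 CPM in CCR1/2 libraries and at 265, 229, 224 and 263 CPM in CCR2 libraries, so that each CCR1/2 library was above each CCR2 library. The log2 difference was 0.25 (95% interval 0.01 to 0.49, adjusted p = 0.53). Pkm was likewise higher in every CCR1/2 library, by 0.21 (95% interval 0.00 to 0.41, adjusted p = 0.55). Groups did not overlap for these 2 of the 10 genes, against 9.71% of all genes.

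The other 8 genes lay between -0.04 and 0.28 on the log2 scale in that comparison, and for Ldha the 95% interval ran from -0.35 to 0.35. Libraries of 1 inflamed group were spread widely for several genes. In inflamed CCR2 cells Tpi1 stood at 379, 334, 275 and 239 CPM and Aldoa at 2227, 2033, 1879 and 1630 CPM, while in inflamed CCR1/2 libraries 2 to 4 Tpi1 was at 373, 321 and 266 CPM. Gapdh, Ldha, Aldoa and Tpi1 had their lowest value in library 4 of both groups, whereas Pfkl in inflamed CCR2 library 4 was close to its highest. No library of a group of 4 was an outlier for any of the 10 genes by Dixon's criterion.

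The inflamed CCR1 group, which the labels put beside the other inflamed cells, split the set. Against inflamed CCR2 cells 2 genes were higher, 5 lower and 3 not called, when 22.7% of all genes were higher and 25.4% lower. Against inflamed CCR1/2 cells the same split was 2, 5 and 3, when 20.2% of all genes were higher and 23.0% lower. The 2 comparisons share the inflamed CCR1 libraries, so they are given side by side. Groups did not overlap for 6 and 7 of the 10, against 45.3% and 47.4% of all genes.

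Hk3 stood out at 519, 549, 637 and 597 CPM in the inflamed CCR1 libraries, above the highest of any other library, which was 189 CPM in resting CCR1/2 cells. It was higher by 2.25 on the log2 scale than in inflamed CCR2 cells (SE 0.14, adjusted p = 3.8e-10) and by 1.98 than in inflamed CCR1/2 cells (SE 0.12, adjusted p = 1.6e-08). Gpi1 was at 1484, 1623, 1744 and 1896 CPM, against 492 to 541 CPM in inflamed CCR2 libraries and 497 to 610 CPM in inflamed CCR1/2 libraries. Its log2 differences were 1.70 (SE 0.10, adjusted p = 2.4e-10) and 1.64 (SE 0.10, adjusted p = 1.7e-08). Hk3 and Gpi1 act at consecutive steps, the first and the next after glucose has entered the cell.

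Slc2a1 was at 21.5, 26.3, 25.1 and 23.8 CPM in the inflamed CCR1 libraries, the lowest group mean of the 5, and none of these libraries reached the lowest resting one at 29.3 CPM. It was lower than in inflamed CCR2 cells by a log2 difference of -1.95 (SE 0.13, adjusted p = 9.9e-10) and than in inflamed CCR1/2 cells by -2.15 (SE 0.13, adjusted p = 9.5e-09). Pfkl, at 105, 124, 119 and 94.3 CPM, was lower by -1.14 and -1.42. Its range overlapped that of resting CCR2 cells, which was 82.4 to 98.4 CPM.

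Gapdh and Aldoa were lower by smaller amounts, -0.52 and -0.45 against inflamed CCR2 cells and -0.50 and -0.54 against inflamed CCR1/2 cells, each with adjusted p at most 0.0028. Pkm was at 3852, 3724, 4320 and 4428 CPM, lower by -0.26 (adjusted p = 0.033) and -0.49 (adjusted p = 0.00038). The first of these calls was lost with RLE size factors (adjusted p = 0.065), without a filter on low counts (0.087) and on leaving out any of 6 of the 8 libraries, inflamed CCR1 library 1, 2 or 3 or inflamed CCR2 library 1, 2 or 3 (largest adjusted p = 0.15). Ldha, Pgk1 and Tpi1 were not called in either comparison. For Ldha, at 665, 750, 719 and 727 CPM, the 95% interval against inflamed CCR2 cells was -0.33 to 0.19. Without inflamed CCR1/2 library 4, Pgk1 (log2 difference -0.40, adjusted p = 0.0097) and Tpi1 (-0.29, adjusted p = 0.048) were called lower against the remaining inflamed CCR1/2 libraries.

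Beside these differences, neutrophil and monocyte markers moved as described above. Against inflamed CCR2 cells all 10 monocyte markers were lower and 10 of 11 mature neutrophil markers higher. The 5 early granule markers were all higher and summed to between 44397 and 53492 CPM, against at most 6487 CPM elsewhere. All 11 cell cycle genes tested were higher, with sums between 6075 and 6679 CPM against at most 4343 CPM in any other library. Dendritic cell markers were lower for 6 of 8 and summed to between 4.16 and 5.89 CPM, against 137 to 593 CPM in inflamed CCR2 libraries. The part of cell type in the levels of Hk3, Gpi1, Slc2a1 and Pfkl cannot be told apart from that of the CCR1 label.

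Related genes of the same steps were taken from a list of 33 glycolysis pathway genes outside the set, of which 28 could be tested. In inflamed against resting CCR2 cells 15 rose and 6 fell, with a median log2 fold change of 0.56. Over all genes 21.9% were called higher and 25.9% lower there, with a median of -0.10. In CCR1/2 cells 15 rose and 5 fell, with a median of 0.51. Over all genes 20.6% were called higher and 25.4% lower there, with a median of -0.25. In both populations falls were no more frequent than over all genes. Eno1, the enolase that acts before pyruvate kinase, went from 1717 ± 204 CPM (SD, n = 4) to 5687 ± 353 CPM (n = 4) in CCR2 cells, a log2 fold change of 1.66. In CCR1/2 cells it rose by 2.06. Eno1b, a near-identical copy, rose by 1.96 and 2.11, and reads shared between the pair could not be assigned by unique alignment. Slc16a3, which encodes the lactate exporter MCT4, rose by 2.09 in CCR2 cells, from 60.4 ± 9.67 to 270 ± 49.9 CPM.

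Among hexokinase genes the values ran in different directions; Hk2 and the isoenzymes plotted were chosen after their values were seen. Hk1, the ubiquitous isoenzyme, rose by 1.74 in CCR2 cells and 1.85 in CCR1/2 cells, from 56.1 ± 5.58 CPM to 196 ± 19.3 CPM in the former, where Hk3 was not called. Hk2 stood at 107 ± 7.20 CPM in resting and 56.6 ± 4.93 CPM in inflamed CCR2 cells. Adpgk, the ADP-dependent glucokinase, fell by 2.96 in CCR2 cells, from 51.3 ± 4.68 to 6.92 ± 0.492 CPM, and by 3.18 in CCR1/2 cells. Ldhb, the other lactate dehydrogenase subunit, fell by 1.06 in CCR2 cells while Ldha rose.

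**Figure D4:**
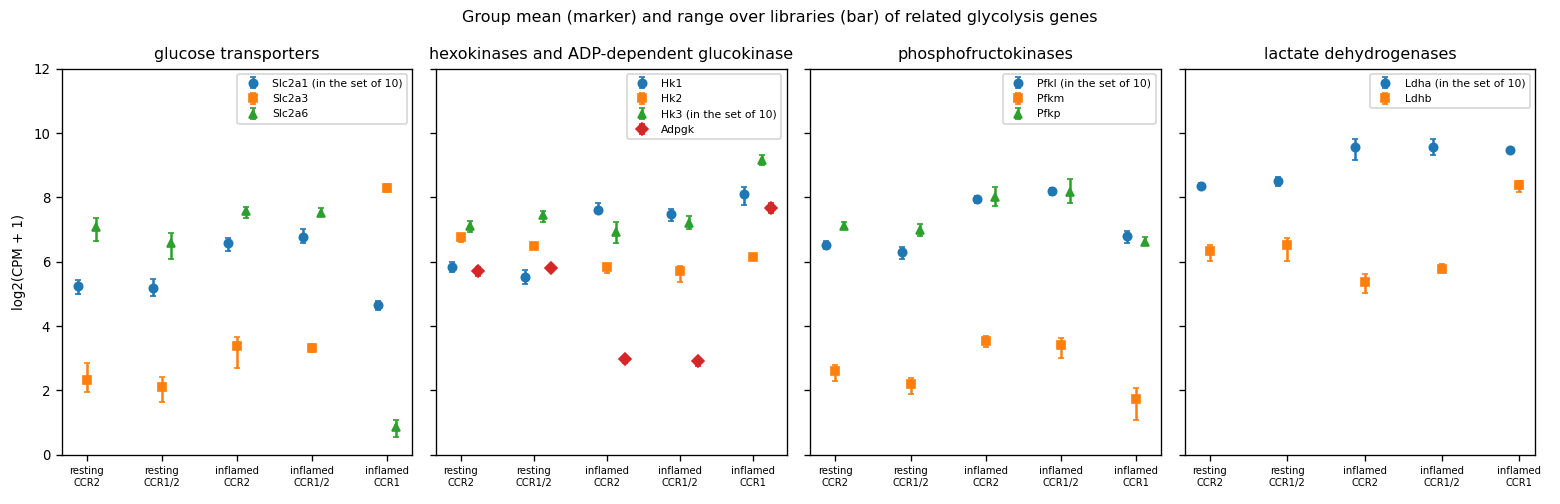
Group mean (marker) and range over libraries (bar) of related glucose transporters, hexokinases with Adpgk, phosphofructokinases and lactate dehydrogenases, on a log2(CPM + 1) axis, for the 5 groups. In the inflamed CCR1 group Slc2a3 is at 315 CPM and Slc2a6 at 0.828 CPM, and Adpgk is lowest in the inflamed CCR2 and CCR1/2 groups.

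In the inflamed CCR1 group other glucose transporter genes differed more than Slc2a1 did. Slc2a3, which encodes GLUT3, was at 315 ± 28.9 CPM against 9.31 ± 2.87 CPM in inflamed CCR2 cells, a log2 difference of 5.08 (SE 0.20). Slc2a6, which encodes GLUT6, was at 0.828 ± 0.280 CPM against 188 ± 24.6 CPM, a difference of -7.81 (SE 0.21). Ldhb was higher by 3.06 and Adpgk by 4.86, and the platelet-type phosphofructokinase gene Pfkp was lower by -1.41, as Pfkl was. Of the 28 listed genes tested, 12 were higher and 8 lower than in inflamed CCR2 cells. Of all genes, 22.7% were higher and 25.4% lower there, so the share lower was near that of all genes. Against inflamed CCR1/2 cells 12 were higher and 9 lower, where 20.2% of all genes were higher and 23.0% lower.

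At rest, 2 of the 28 were higher and 3 lower in CCR1/2 than in CCR2 cells, near the 8.44% of all genes called in each direction. Pfkfb3, which makes the activator of phosphofructokinase, was lower by -1.06 and the muscle enolase gene Eno3 by -1.13. Between the inflamed CCR1/2 and CCR2 populations none of the 28 was called by edgeR.

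Neighbouring pathways held genes that moved in both directions. In CCR2 cells with inflammation, when 21.9% of all genes rose and 25.9% fell, 5 of 13 tested genes of pyruvate entry and gluconeogenesis rose and 6 fell. Pcx, the pyruvate carboxylase, rose by 2.51 on the log2 scale. Mpc2, a subunit of the mitochondrial pyruvate carrier, fell by 3.10 and Dlat, a subunit of pyruvate dehydrogenase, by 2.59. Of 7 pentose phosphate genes 4 rose and 2 fell. H6pd, the hexose 6-phosphate dehydrogenase of the endoplasmic reticulum, rose by 1.08, and Pgls, the lactonase of the oxidative branch, fell by 3.56. Of 18 tested genes of the HIF pathway and its targets outside glycolysis, 4 rose and 5 fell in CCR2 cells. These shares were near those of all genes. In CCR1/2 cells 8 of the 18 rose and 5 fell, when 20.6% of all genes were called higher and 25.4% lower. Hif1an, which encodes the hydroxylase that inhibits HIF, rose by 1.96 in CCR2 cells. Hif1a itself was at 131 ± 23.2 CPM in resting and 55.7 ± 4.17 CPM in inflamed CCR2 cells and fell by 1.30. These lists give counts only, and nothing was tested over a list as a whole.

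Similarity between the genes was described over the 19 libraries as Pearson's r between a gene's log2 CPM and the mean of the other 9 after standardising each, with no test, since libraries of a group share their treatment and sort. Ldha and Gapdh had r = 0.984, Pgk1 0.983, Pkm 0.979, Tpi1 0.963 and Aldoa 0.933. Pfkl had 0.784, Gpi1 0.589, Slc2a1 0.465 and Hk3 0.102. Of 7675 other genes with a mean of at least 10 CPM, the 5 nearest to the mean of the set were Psmd1 (r = 0.994), Psmc4 (0.988), Dhdds (0.987), Eno1b (0.986) and Gtf2f1 (0.986). Psmd1 and Psmc4 encode subunits of the proteasome's regulatory particle.

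Several of these genes have processed copies elsewhere in the genome, and the authors kept only reads that aligned to a single place. Of the stretches of 50 bases in the transcripts, 68.0% in Pgk1 and 58.4% in Gapdh also occurred in other annotated genes counted as copies. Gapdh had 144 such genes. The share was 18.0% in Gpi1, 17.3% in Pkm, 9.88% in Ldha, 7.71% in Aldoa and 6.83% in Tpi1, and none was found in Hk3, Pfkl or Slc2a1 that met the criterion for a copy. With any sharing counted in the longest coding transcript, the share was 82.5% in Gapdh, 68.0% in Pgk1 and 30.5% in Pkm. It was 19.6% in Gpi1, 16.6% in Ldha, 13.5% in Aldoa and 7.51% in Tpi1. The levels of Pgk1 and Gapdh are therefore uncertain. Fold changes also differed with sharing over the genes at large, by the wider count of any sharing. At rest, 206 genes with at least 50% of their stretches shared had a median log2 fold change of 0.13 and an upper quartile of 0.38, against -0.04 and 0.17 for 5149 genes with none shared. The difference called for Pgk1 in that comparison, 0.39, lies at that upper quartile, and the part of sharing in it was not tested. With inflammation in CCR2 cells the shared genes had a median of 0.32 and an upper quartile of 0.84, against 0.10 and 0.65. In CCR1/2 cells these were 0.18 and 0.82, against 0.12 and 0.71. The rises of Gapdh and Pgk1 lay above these quartiles in both populations, and the part of sharing in them was not tested. Reads counted on the 137 Gapdh copies in the table came to between 5.52% and 7.34% of the Gapdh reads in resting CCR2 libraries and between 2.29% and 2.97% in inflamed CCR2 libraries.

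Fold changes with inflammation also differed by base composition over the genes at large. GC content of the longest coding transcript was between 49.7% and 57.7% in the 10 genes. The 3022 other coding genes in that range with a mean of at least 10 CPM had a median log2 fold change of 0.33 in CCR2 cells and 0.33 in CCR1/2 cells. The 3829 genes below it had -0.06 and -0.00, and the 625 genes above it 0.05 and -0.06. In that range the upper quartile began at 0.83 in CCR2 cells, above the rises of Tpi1 (0.69) and Gpi1 (0.71) and below those of the other 7 genes that rose. In CCR1/2 cells it began at 0.89, above the rises of Tpi1 (0.63), Gpi1 (0.69) and Aldoa (0.86) and below those of the other 6. The part of base composition in the rises was not tested. Pkm and Gpi1 overlap other annotated genes over 15.3% and 11.5% of their exonic bases. Reads on those overlapping genes, Gm49759 and Gm26762, came to 0.163% and 0.533% of theirs. Tpi1 and Gapdh overlap Spsb2 and Iffo1 over 1.24% and 1.65% of their exonic bases. Reads on Spsb2 came to 12.4% of those on Tpi1, and reads on Iffo1 to 1.70% of those on Gapdh. How many reads were lost to the overlaps was not measured.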

How the data were processed

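Bone marrow cells from REP mice were sorted by CCR1 and CCR2 reporter, and low-input mRNA libraries were sequenced from both ends. Per the labels and the study's methods, the authors aligned reads with STAR 2.7.10a to GRCm38, kept reads that aligned to 1 place, and deposited raw read counts per gene, with no normalisation. Whether counting used strand is not given in the sources used here. Of the 20 count columns, 19 were matched to labelled samples and 1, which matched no sample, was not used. Libraries held 22268658 to 30502009 reads. Molecular identifiers were not counted, so precision from depth covers counting error only.

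Groups followed the sample titles. The 10 genes and all lists were chosen with earlier results of these data known. The 18652 genes whose counts averaged 1 or more across the 19 libraries entered the fits in edgeR 4.0.16 (R 4.3.3), by its quasi-likelihood test with TMM factors, each comparison fitted on its own groups and the interaction on 4 groups. P-values were adjusted by Benjamini-Hochberg over all genes tested, and calls were made at an adjusted p below 0.05, with a change of 1 or more on the log2 scale in either direction as a second cutoff. CPM values were scaled by TMM factors over all 19 libraries, so their ratios differ slightly from fitted fold changes. From each list, at most 4 genes a direction past both cutoffs, those with the smallest adjusted p, could be named, together with rows of near-identical copies and the 5 genes most like the set; other names were chosen after their values were seen.

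Replicate numbers pair the resting groups and the inflamed CCR1 and CCR2 groups in the data. Over 7685 genes, deviations from the group means correlated in every same-numbered pair, by 0.306 to 0.611 and by 0.134 to 0.247. In the other comparisons at least 1 pair was at or below 0.1. On simulated counts with 200 changed genes of 18652, the resting comparison recovered 76.7% of changes of 1 and 92.8% of changes of 2 on the log2 scale. For changes of 1 this share was 63.9% between the inflamed CCR1/2 and CCR2 groups and 51.5% for the interaction. The changed genes were drawn from a pool reaching far lower read counts than the glycolysis genes, whose lowest count in any library was 472. These shares therefore do not give the recovery for the glycolysis genes. False calls were between 5.35% and 14.0% of all calls over the comparisons. The alternatives were RLE factors, library totals, DESeq2 1.42.0, no filter, filterByExpr, 1 fit of all libraries, the replicate block, summed copies and leaving out each library. Near-identical copies were sought as stretches of 50 bases shared with other annotated transcripts, with a gene counted as a copy when it held at least 1% of a gene's stretches. Promoters are from RefSeq on GRCm38.p6.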

Additional observations from a re-analysis of the deposited data

How the results depend on the processing

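Of 1150 values of the 10 genes under the alternatives, 1123 kept their direction and their side of the threshold, 15 lost the call, 12 gained one and none reversed. At rest the number of genes higher in CCR1/2 cells was 2, and it was 3 with RLE factors (Ldha added, adjusted p = 0.047), 4 with library totals, DESeq2, filterByExpr or the replicate block and 0 in 1 fit of all 19 libraries. The replicate block changed the number of genes called in no other comparison. The 1 gene lower with inflammation in CCR1/2 cells, Hk3, became 0 with RLE factors, DESeq2 and 1 fit of all libraries. Leaving out each library gave 0 to 1 gene lower with inflammation in CCR1/2 cells, and 0 to 1 in CCR2 cells, where Hk3 (-0.36, adjusted p = 0.048) was called without inflamed CCR2 library 3. It gave 4 to 5 genes lower in the inflamed CCR1 group against CCR2 cells and 5 to 7 against CCR1/2 cells, with 2 higher throughout, and it gave 9 higher with inflammation in both populations. The cause of these changes was not tested. With library totals the median of all genes with inflammation in CCR1/2 cells moved from -0.25 to -0.46, and calls from 3844 higher and 4742 lower to 2997 and 5639, while all 9 glycolysis genes kept their rise. Over all genes at rest, 1 fit of all libraries called 1006 higher and 1540 lower in place of 1575 and 1574. DESeq2 called 141 higher and 124 lower between the inflamed populations, where edgeR called 23 and 12, and RLE factors called 85 and 28 in the interaction in place of 45 and 29.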
